A study of Mus musculus with 16 samples.

Results

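The extracellular matrix genes of C2C12 myotubes were described with and without electrical pulse stimulation (EPS). The set holds 45 genes of the 48432 gene identifiers in the table: fibrillar and other collagens, basement membrane chains, fibronectin and elastic fibre genes, lysyl oxidases, matricellular proteins, small proteoglycans, matrix proteases and their inhibitors. They were chosen by gene symbol, all 45 were matched, and 40 had enough fragments to be tested. C2C12 is an established mouse myoblast line, a single line and not primary muscle, which fuses into contractile myotubes. Both groups were grown on gelatin-coated plates and differentiated in horse serum for 5 days. The 4 control libraries came from cultures without stimulation. The 4 EPS libraries came from cultures given 6 ms pulses at 1 Hz (a duty cycle of 0.6%) in a field of 2.75 V/mm, with the polarity switched at 0.5 Hz. The duration of stimulation is not stated in the labels. Nothing in the labels tells whether the 4 libraries of 1 group are separate cultures, and the p-values therefore reflect only how these libraries spread, which may be technical. The series title concerns GDF15 and muscle contraction, and the comparison described here asks which matrix transcripts differ in stimulated myotubes.

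Muscle fibres are wrapped in a basement membrane, a sheet of laminin and type IV collagen networks that nidogens link to each other. Outside it lies a looser matrix of fibrillar collagens, fibronectin and fibrillin, in which lysyl oxidases crosslink the collagens. Matricellular proteins such as thrombospondins and the CCN proteins bind this matrix and signal to cells, and the matrix is cut by metalloproteinases and by plasmin, which urokinase (Plau) makes at the cell surface where its receptor (Plaur) holds it. In bulk cultures, fewer cells of a type and less RNA per cell cannot be told apart.

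The 7 deep libraries held 12.6 to 20.7 M fragments (M stands for 10 to the power of 6). Control replicate 2 held 0.354 M. Levels are in CPM, counts per M fragments of the library after scaling by TMM factors, which ran from 0.853 (EPS replicate 2) to 1.07 (EPS replicate 3). A count of 3 fragments is the limit that a count of 0 allows. Without that scaling, it is 0.146 to 0.239 CPM in the deep libraries and 8.68 CPM in control replicate 2. Limits and intervals given for counts cover counting error only. Of 10 myotube markers Ttn was left out as skipped in the table, and the summed level of the other 9 was 23176 to 25891 CPM in the control libraries and 14116 to 19086 CPM in the EPS libraries, so the groups did not overlap. None of these 9 passed the test. In the fit with the replicate number as a block, 6 of them were called lower, where 4.78% of all genes were. Of 9 myoblast and cycling cell markers, summed at 441 to 888 CPM in control and 355 to 726 CPM in EPS, none passed. Of 7 fibroblast markers, 3 were tested, and Tcf21 was at 0 in every library. The sums were 45.8 to 150 CPM in control and 60.5 to 120 CPM in EPS, mostly from Ly6a. Pdgfra was at 5.67 to 9.88 CPM in control and 13.7 to 21.9 CPM in EPS, without overlap (edgeR adjusted p = 0.0542). With the block it was called higher (log2 fold change 0.89, adjusted p = 0.0141), where 7.31% of all genes were. Ly6a and Pi16 were not called in either fit. Bone and cartilage markers summed to 67.6 to 89.4 CPM in control and 68.6 to 160 CPM in EPS, with Acan at 0. Endothelial markers (0 to 1.26 CPM in control, 1.14 to 14.7 in EPS), leukocyte markers (2.72 to 8.51 and 2.33 to 29.3, with Adgre1 at 0) and adipocyte markers (0 to 0.157 and 0 to 0.481) were low. The highest endothelial and leukocyte sums were in EPS replicate 2, where Pecam1 (10.8 CPM) and Cd68 (27.0 CPM) made up most of them. The part of cell composition in the matrix results was not tested.

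Among the genes the results turn on are 5 that can be shown with the 250 bases before their start: both members that passed the test (Nid1 and Plaur), Mmp10 and Mmp13, whose counts lay almost entirely in the EPS libraries, and Mmp3, their near neighbour with almost no counts. Sequences are from RefSeq (GRCm38.p6), 5′ to 3′ on the gene's strand, which is the plus strand for all 5, and end just before the RefSeq start. For Nid1 the GENCODE gene begins upstream of that start, so the last 51 bases of its window lie inside the gene as annotated there. Capitals mark the 7 letters TGAGTCA or their reverse complement TGACTCA, the consensus bound by AP-1, a factor made of Jun and Fos proteins. The windows are Mmp10 (chr9:7502092-7502341), Mmp13 (chr9:7272264-7272513), Mmp3 (chr9:7445572-7445821), Plaur (chr7:24462233-24462482) and Nid1 (chr13:13437352-13437601).
Mmp10: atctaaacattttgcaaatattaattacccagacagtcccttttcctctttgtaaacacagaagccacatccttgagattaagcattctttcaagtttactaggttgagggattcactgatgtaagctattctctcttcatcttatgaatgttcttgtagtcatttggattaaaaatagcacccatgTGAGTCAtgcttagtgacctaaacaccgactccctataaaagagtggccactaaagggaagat
Mmp13: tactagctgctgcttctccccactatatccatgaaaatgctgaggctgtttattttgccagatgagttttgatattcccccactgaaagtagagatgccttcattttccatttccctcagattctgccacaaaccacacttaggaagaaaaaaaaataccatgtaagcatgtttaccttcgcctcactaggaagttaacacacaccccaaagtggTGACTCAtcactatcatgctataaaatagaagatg
Mmp3: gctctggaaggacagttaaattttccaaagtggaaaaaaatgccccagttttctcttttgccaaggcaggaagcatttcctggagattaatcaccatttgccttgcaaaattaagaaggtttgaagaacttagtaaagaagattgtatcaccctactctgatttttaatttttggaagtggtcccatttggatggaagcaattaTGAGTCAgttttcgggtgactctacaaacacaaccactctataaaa
Plaur: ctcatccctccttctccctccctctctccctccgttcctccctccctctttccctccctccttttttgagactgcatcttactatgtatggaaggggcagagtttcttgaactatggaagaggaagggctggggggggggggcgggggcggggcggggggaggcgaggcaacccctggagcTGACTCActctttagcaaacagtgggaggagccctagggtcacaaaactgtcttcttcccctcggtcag
Nid1: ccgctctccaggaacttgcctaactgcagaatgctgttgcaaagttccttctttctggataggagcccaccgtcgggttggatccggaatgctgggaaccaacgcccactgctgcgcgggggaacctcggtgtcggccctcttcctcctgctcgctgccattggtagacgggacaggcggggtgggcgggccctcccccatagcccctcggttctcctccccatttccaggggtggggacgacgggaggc

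The capitals begin 63 bases before the start in Mmp10, 35 in Mmp13, 46 in Mmp3 and 69 in Plaur, and the Nid1 window holds none. Windows were at hand for 29 of the 45 members, and the letters occur in those of 5 members, the fifth being Col6a1. Of 32851 mouse windows of this length, 4.46% hold them. A second motif, TGACNNNGC on either strand, the core bound by the antioxidant response factor Nrf2, occurs in the windows of Col4a2, Col6a2, Cyr61, Postn and Timp2, and in 10.2% of all windows. Another motif, TATAAA on either strand, the TATA box core, occurs in the windows of 9 members (Adamts1, Col3a1, Cyr61, Mmp3, Mmp10, Mmp13, Postn, Thbs2 and Tnc) and in 12.4% of all windows. These 3 motifs were chosen after the values were seen, and a match describes letters, not binding.

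In the comparison of EPS with control, 2 matrix genes rose, Nid1 and Plaur, and none fell at the threshold. Of all 13987 genes tested, 2.3% passed the test (edgeR's quasi-likelihood test, Benjamini-Hochberg adjusted p under 0.05) as higher and 0.758% as lower. At an unadjusted p under 0.05, 4 members were higher and 6 lower, against 12.2% and 6.33% of all genes, and DESeq2, which also tested Mmp10 and Mmp13, called 5 members higher and 3 lower, against 4.32% and 1.89% of all genes it tested. The fitted log2 fold change was negative for 27 of the 40 tested members, against 49.1% of all genes, with a median of -0.34 beside 0.010 over all genes.

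Control and EPS libraries carry the same replicate numbers, and same-numbered libraries deviated together. Replicates 3 and 4 also deviated together across numbers, so pairing by number is less clear for them. With the replicate number as a block, 5 members were higher and 11 lower, where 7.31% and 4.78% of all genes were called. The 5 are Nid1, Plaur, Lamc1, Cyr61 and Adamts1. The 11 are Col6a2, Col8a1, Col11a1, Col12a1, Fbn1, Loxl1, Postn, Thbs1, Thbs2, Mmp14 and Plau. In the same-numbered pairs, 16 of the 40 members were lower in EPS in 4 of 4 pairs, against 15.7% of all genes, and 6 were higher in 4 of 4, against 22% of all genes. Without replicate 2 of both groups, the blocked fit called 5 members higher and 20 lower, where 9.1% and 8.23% of all genes were called, and all 16 members called with all libraries were among these 25, in the same direction. With offsets for transcript length and GC content added to the block, 23 members were lower, where 8.04% of all genes were called, and 5 were higher (7.89% of all genes).

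**Figure D1:**
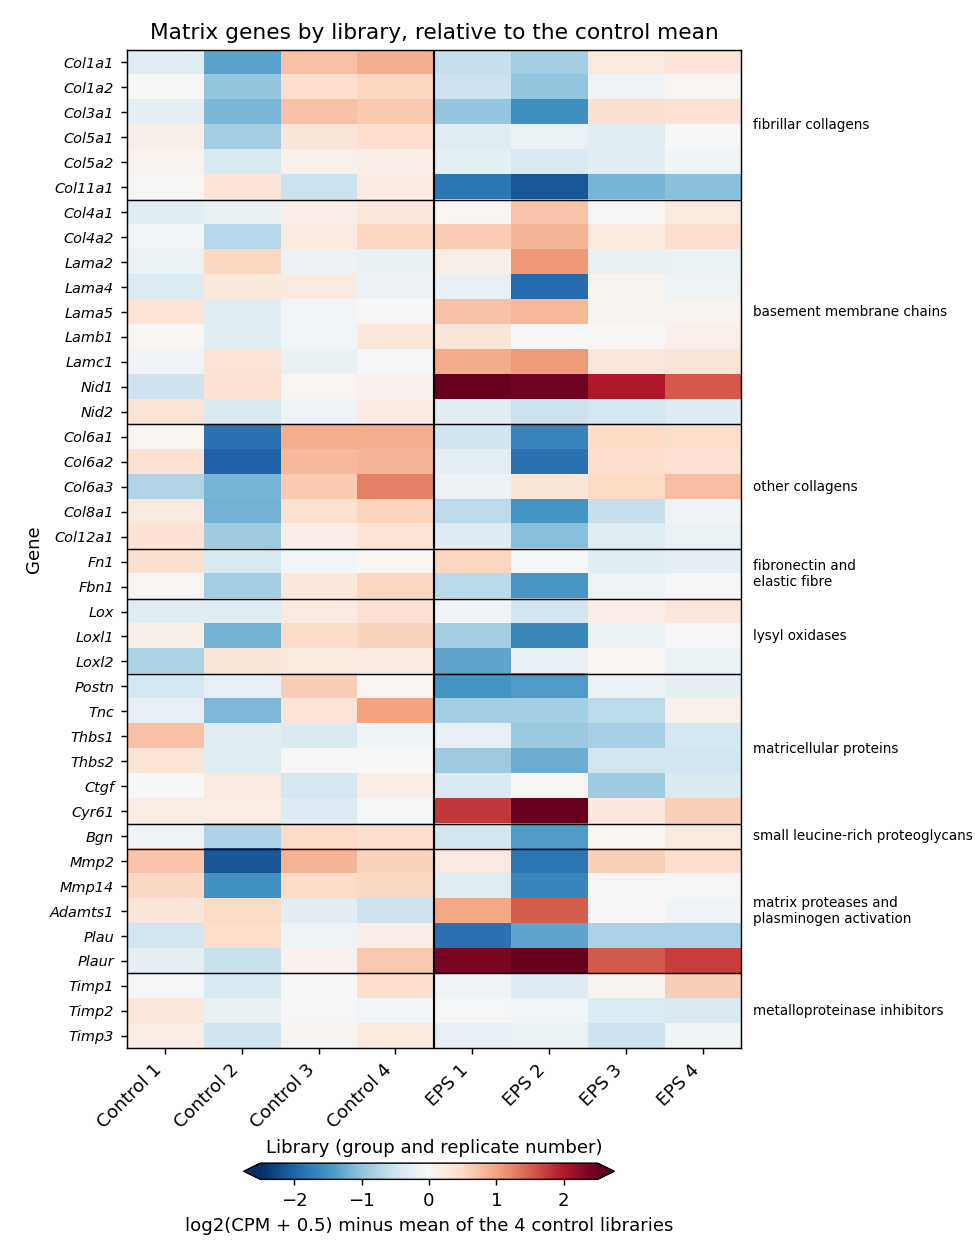
Heat map of the 40 tested matrix genes (rows, grouped by role) in the 8 libraries (columns), coloured by log2(CPM + 0.5) minus the mean of the 4 control libraries, with colours saturating at 2.5 in either direction. Nid1 and Plaur are red in all 4 EPS libraries, and Cyr61 is reddest in EPS replicates 1 and 2, while the fibrillar collagens Col1a1, Col1a2 and Col3a1 separate replicates 3 and 4 from 1 and 2 in both groups.

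Nidogen-1 (Nid1, chr13:13437551-13512269), the protein that joins laminin to type IV collagen, rose 4.46-fold in EPS. Its level was 161, 295, 239.7 and 250.5 CPM in control replicates 1 to 4 and 1319, 1253, 931 and 669 CPM in EPS replicates 1 to 4. Every EPS library lay above every control library, with EPS replicates 1 and 2 the highest. The means were 236 ± 56.0 CPM in control and 1043 ± 301 CPM in EPS (SD, n = 4), and the fitted log2 fold change of 2.16 (SE 0.27) had an edgeR adjusted p of 0.00302. Per length, Nid1 stood at 31.9 FPKM ± 9.21 in control and 141 FPKM ± 40.7 in EPS (SD, n = 4). The log2 fold change was 2.58 from replicates 1 and 2 alone, 1.71 from the other two, and it stayed between 2.00 and 2.30 when any library was left out, with an adjusted p of at most 0.0231.

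Its paralogue Nid2, which has a similar linking role, had a fitted change of the opposite sign. Nid2 was at 358, 221, 262 and 331 CPM in control and at 236, 198, 212 and 231 CPM in EPS. It was lower in each same-numbered pair but overlapped between groups, with a log2 fold change of -0.43 (SE 0.18, edgeR adjusted p = 0.232). With the replicate block the value was -0.41 (adjusted p = 0.0749). With length and GC offsets and no block, Nid2 was called lower (-0.56, adjusted p = 0.0386). Within a library, the ratio of Nid1 to Nid2 per transcript length does not depend on scaling between libraries. That ratio was 0.359, 1.07, 0.731 and 0.606 in control and 4.47, 5.05, 3.52 and 2.32 in EPS. The groups did not overlap, and the log2 ratio differed by 2.52 (exact two-sided permutation p = 0.0286, the smallest this design allows; 0.257 after adjustment over the 9 ratios computed). An exon of Nid2 overlaps Rtraf on the opposite strand (103 CPM, edgeR adjusted p = 0.332), and no source used here states the strand setting of the counting.

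The other basement membrane chains moved less. Laminin gamma-1 (Lamc1), the gamma chain of most laminin trimers, was at 241, 321, 227 and 248 CPM in control and 486, 536, 311 and 316 CPM in EPS. Only control replicate 2 overlapped the EPS range. Its log2 fold change was 0.68 (SE 0.22, edgeR adjusted p = 0.134), and with the replicate block it was 0.64 with an adjusted p of 0.0202. Laminin alpha-5 (Lama5) was higher in 4 of 4 pairs, at 218 to 332 CPM in control and 279 to 467 CPM in EPS, with a log2 fold change of 0.45 (edgeR adjusted p = 0.315). The type IV collagen chains Col4a1 and Col4a2, which form 1 trimer and overlap each other on opposite strands, had log2 fold changes of 0.26 and 0.47 (adjusted p = 0.553 and 0.358). Within replicates 1 and 2, Col4a1 had 0.64 (edgeR adjusted p = 0.102) and Col4a2 1.04 (adjusted p = 0.0207, called higher). Replicates 3 and 4 gave -0.084 and -0.058. The spread behind these p-values was pooled over all 8 libraries. The difference between the replicate sets was not called for either (interaction, adjusted p = 0.471 and 0.383). Lama2, the alpha chain of the adult muscle laminin, was at 155, 249.7, 158 and 154 CPM in control and 195, 371, 154 and 156 CPM in EPS, so replicate 2 was the highest in both groups. Lamb1 had a log2 fold change of 0.092 and Lama4 of -0.34, neither called with or without the block.

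The urokinase receptor Plaur (chr7:24462484-24475968), which anchors urokinase at the cell surface, rose from a low level. It was at 3.68, 2.84, 4.79 and 7.30 CPM in control and 24.8, 34.2, 13.7 and 15.8 CPM in EPS. All 4 EPS libraries lay above all 4 control libraries, and replicates 1 and 2 were again the highest. The value of control replicate 2 rests on 1 fragment, below the limit for that library. The log2 fold change was 2.09 (SE 0.36) with an edgeR adjusted p of 0.0132, and the means were 4.65 ± 1.94 and 22.1 ± 9.37 CPM (SD, n = 4). The call was lost without control replicate 1 (adjusted p = 0.0697), control replicate 3 (0.0756) or EPS replicate 1 (0.0504), and within replicates 3 and 4 (0.0533), while the log2 fold change without any 1 library was 1.79 to 2.39. With the replicate block the adjusted p was 0.00287.

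Urokinase itself (Plau), the protease that Plaur binds, had a fitted change of the other sign. Its level was 55.3, 105, 71.3 and 87.8 CPM in control and 21.1, 30.7, 44.7 and 44.4 CPM in EPS, with every EPS library below every control library. The log2 fold change of -1.13 (SE 0.27) had an edgeR adjusted p of 0.0545, just above the threshold. It was also -1.13 with the replicate block, where the adjusted p was 0.00245, and DESeq2 gave an adjusted p of 0.00359. Ligand and receptor thus had opposite signs in each of the 4 pairs. Genes described here outside the naming rule (among them Plau, Cyr61, Col11a1, Lamc1, Mmp10 and Mmp13) were chosen after their values were seen.

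**Figure D2:**
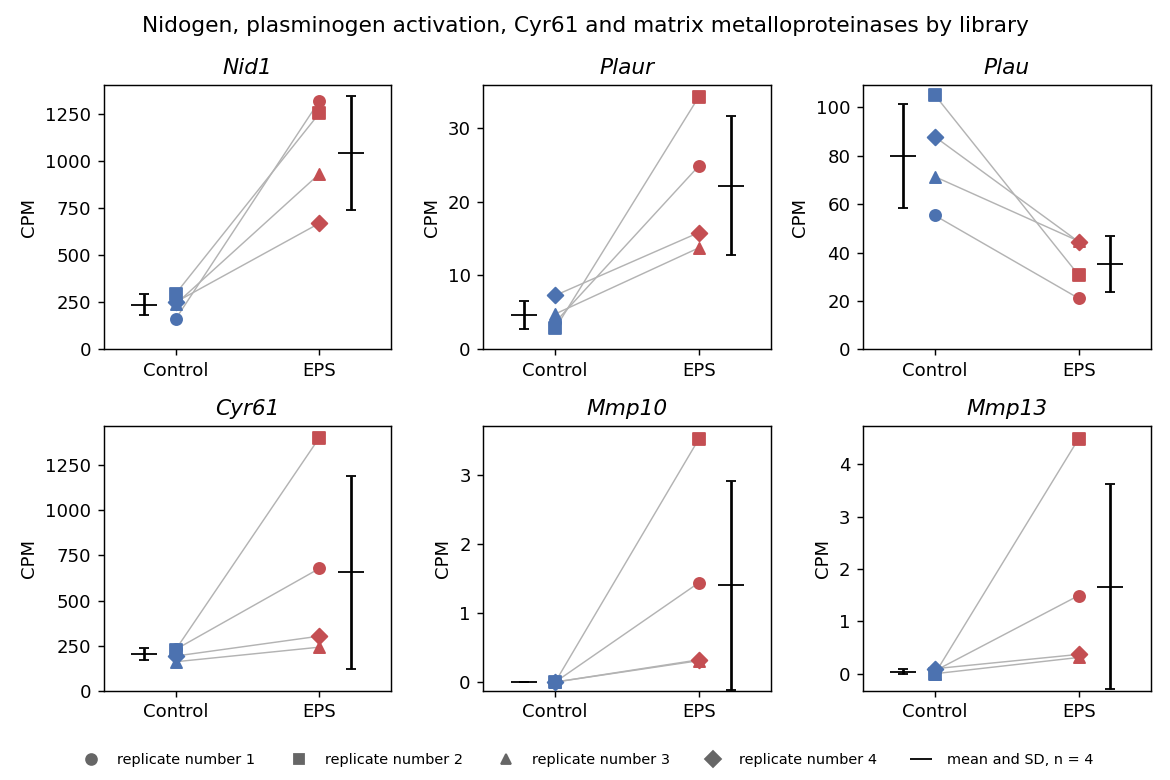
Level in CPM (linear axes) of Nid1, Plaur, Plau, Cyr61, Mmp10 and Mmp13 in each library, with grey lines joining control and EPS libraries of the same replicate number and black bars for mean and SD (n = 4). Nid1 and Plaur lie higher and Plau lower in all 4 EPS libraries, and Cyr61, Mmp10 and Mmp13 are highest in EPS replicate 2.

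Stromelysin-2 (Mmp10) and collagenase-3 (Mmp13), 2 secreted metalloproteinases, were near or at 0 in control and did not pass the filter on low counts. Mmp10 had 0 fragments in each control library and 28, 44, 6 and 7 in EPS replicates 1 to 4 (1.44, 3.52, 0.310 and 0.323 CPM). Summed over libraries, 0 fragments in control against 85 in EPS make Mmp10 at least 20.4-fold higher, with a floor of 3 counts over the control group and the EPS count taken as exact. That bound was 11.9 without EPS replicate 2, 12.3 without control replicate 4 and 13.2 without control replicate 1. Mmp13 had 1, 0, 0 and 2 fragments in control and 29, 56, 6 and 8 in EPS (1.49, 4.49, 0.310 and 0.369 CPM). Its ratio of summed counts per depth was 23.7 (95% counting interval 7.89 to 117), which covers counting error only. It was 12.4 without EPS replicate 2 (interval 3.98 to 62.7) and 42.8 without control replicate 4. Both genes had fragments in all 4 EPS libraries, most of them in replicates 1 and 2. Without the filter, edgeR gave adjusted p-values of 0.0182 for Mmp10 and 0.0288 for Mmp13, and DESeq2 gave 0.00784 and 0.0142.

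Both genes lie on chromosome 9 (Mmp13 at chr9:7272514-7283331, Mmp10 at chr9:7502352-7510240), and Mmp3 (stromelysin-1, chr9:7445822-7455975) lies between them. Mmp3 had 1 fragment in control and 2 in EPS over all libraries, although its window holds the same 7 letters as those of Mmp10 and Mmp13. In EPS replicate 2, where Mmp10 and Mmp13 were highest, leukocyte markers also had their highest sum (29.3 CPM). Most of that sum was Cd68 (27.0 CPM), with Itgam at 2.08, Ptprc at 0.240 and Adgre1 at 0 CPM. The part of leukocytes in the Mmp10 and Mmp13 counts was not tested.

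The gelatinase Mmp2 and the membrane-type metalloproteinase Mmp14, which activates pro-Mmp2, were the abundant metalloproteinases among the members, at 51.0 ± 27.9 and 89.2 ± 36.1 FPKM in control (SD, n = 4). Mmp14 was at 359.6, 88.0, 349 and 361 CPM in control and 203, 80.7, 254 and 246 CPM in EPS, with replicate 2 lowest in both groups. The fitted log2 change was -0.60 (SE 0.43, edgeR adjusted p = 0.496) and, with the replicate block, -0.53 with an adjusted p of 0.0389. Mmp2 had -0.32 and was not called with or without the block. Adamts1, a secreted protease that cuts proteoglycans, was at 113, 128, 74.5 and 63.5 CPM in control and 179, 262, 90.1 and 84.5 CPM in EPS. It was higher in 4 of 4 pairs although the groups overlapped, and its fitted value was 0.75 on the log2 scale (edgeR adjusted p = 0.325), or 0.56 with the block (adjusted p = 0.0333).

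The metalloproteinase inhibitors did not pass the test, with or without the block. With length and GC offsets added to the block, 8.04% of all genes were called lower. In that fit Timp2 (-0.37, edgeR adjusted p = 0.0262) and Timp3 (-0.42, adjusted p = 0.0468) were called lower and Timp1 was not called. Timp2, which with Mmp14 takes part in activating Mmp2, was at 1859, 1350.5, 1513 and 1466 CPM in control and at 1488, 1462, 1206 and 1185 CPM in EPS (log2 fold change -0.21, SE 0.18, edgeR adjusted p = 0.576). Timp1 was at 253, 201, 259 and 349 CPM in control and 244, 208, 278 and 399 CPM in EPS (log2 fold change 0.073, SE 0.24, adjusted p = 0.908). Both overlapped between groups, and per length both ranked among the 5 most abundant members in control (425 FPKM for Timp2, 321 FPKM for Timp1). For Timp3 the value was -0.28 (adjusted p = 0.465). The per-length ratio of Mmp2 to Timp2 overlapped between groups, and that of Mmp3 to Timp1 was not computed because Mmp3 was at 0 in most libraries.

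All 6 fibrillar collagen chains had negative fitted fold changes, with a median of -0.40 on the log2 scale, and none passed the test. With the replicate block, 1 of the 6 was called lower, and with length and GC offsets added, all 6. Col3a1 (type III collagen), the most abundant of them per length at 397 ± 186 FPKM in control (SD, n = 4), was at 1972, 1067, 3895 and 3662 CPM in control and 1204, 804, 3095 and 3014 CPM in EPS. The 2 pairs of replicates differed more than the groups did: replicates 3 and 4 were high and 1 and 2 low in both. EPS was lower in each pair, with a log2 fold change of -0.39 (SE 0.50, edgeR adjusted p = 0.726) and of -0.43 with the block (adjusted p = 0.0697). Col1a2 (the alpha-2 chain of type I collagen) was at 862, 434, 1145 and 1231 CPM in control and 593, 429.5, 799.9 and 885 CPM in EPS, also lower in each pair, with a log2 fold change of -0.45 (SE 0.33, adjusted p = 0.507). Its partner chain Col1a1 was lower in 3 of 4 pairs and higher in pair 2 (116 CPM in control, 162 in EPS). An exon of Col3a1 overlaps the minor gene Gm47302 on the same strand (2.77 CPM).

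Col11a1, a chain of the minor fibrillar type XI collagen, was the lowest in level of the 6 and had the largest fitted change among them. It was at 4.54, 5.67, 2.91 and 5.20 CPM in control and 0.926, 0.641, 1.71 and 1.89 CPM in EPS, and the groups did not overlap. The log2 fold change was -1.72 (SE 0.41, edgeR adjusted p = 0.0504), and -1.57 with the replicate block (adjusted p = 0.0162). DESeq2 gave an adjusted p of 0.0153. Control replicate 2 had 2 fragments, under the limit of that library. Col5a1 and Col5a2, the type V chains that nucleate fibrils, had log2 fold changes of -0.26 each (adjusted p = 0.640 and 0.486).

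Of the other collagens, Col12a1, a fibril-associated type, was at 869, 366, 759.6 and 859.8 CPM in control and 537, 323, 545 and 603 CPM in EPS. Fitted without a block, its log2 change was -0.52 (SE 0.29, edgeR adjusted p = 0.372), and -0.48 with the block (adjusted p = 0.0469). Col8a1, a short-chain network collagen, was at 248, 93.6, 277 and 314 CPM in control and 135, 75.4, 143 and 199 CPM in EPS. Replicate 2 was lowest in both groups, and EPS was lower in each pair. On the log2 scale its fitted change was -0.79 (SE 0.35, adjusted p = 0.261), and -0.74 with the block (adjusted p = 0.00861). The type VI chains, which form microfilaments next to the basement membrane, did not share a sign: Col6a1 had -0.49, Col6a2 -0.58 and Col6a3 0.028 on the log2 scale (-0.080 with length and GC offsets), and of these Col6a2 was called with the block (-0.47, adjusted p = 0.0434). Col6a3 spanned 79.4 to 429 CPM in control and 161 to 303 CPM in EPS. It was called higher within replicates 1 and 2 (0.98, edgeR adjusted p = 0.0442, pooled spread) and had -0.35 within replicates 3 and 4. That difference was not called (interaction, adjusted p = 0.383).

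**Figure D3:**
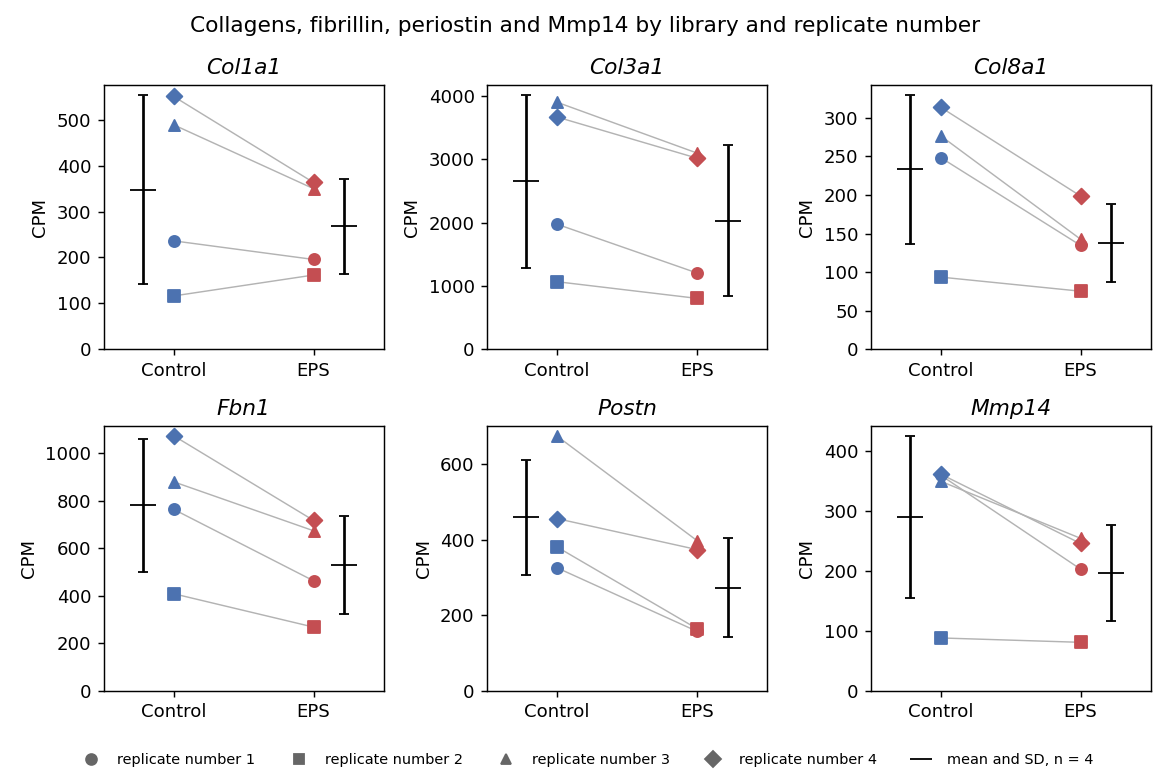
Level in CPM of Col1a1, Col3a1, Col8a1, Fbn1, Postn and Mmp14 in each library, with grey lines joining libraries of the same replicate number and black bars for mean and SD (n = 4). The groups overlap in each panel, while every line slopes down from control to EPS except that of replicate 2 for Col1a1, from 116 to 162 CPM.

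Fibronectin (Fn1), the adhesive glycoprotein on which other matrix assembles, was the most abundant member per length, at 516 ± 85.4 FPKM in control and 532 ± 148 FPKM in EPS (SD, n = 4). It was at 7222, 4168, 5179.6 and 5596 CPM in control and 7891, 5360.3, 4397 and 4606 CPM in EPS. Its log2 fold change was 0.0052 (SE 0.26, edgeR adjusted p = 0.994), with higher values in EPS in pairs 1 and 2 and lower values in pairs 3 and 4. Its sign changed with the scaling: it was -0.00234 with DESeq2's size factors and -0.18 with length and GC offsets. Fibrillin-1 (Fbn1), the core of microfibrils, was at 764, 409, 880.4 and 1075 CPM in control and 463, 268, 674 and 718 CPM in EPS, lower in each pair with overlapping groups. The fitted log2 change was -0.57 (SE 0.35, adjusted p = 0.421), and -0.57 with the block, where the adjusted p was 0.0183. Elastin (Eln) had 0 fragments in each control library and 6, 1, 1 and 2 in EPS replicates 1 to 4. Without the filter on low counts it was not called (edgeR adjusted p = 0.244, DESeq2 unadjusted p = 0.417). With a floor of 3 counts over the control group and the EPS count taken as exact, the bound on its rise was 2.40-fold. Without EPS replicate 1 that bound was 1.31, without control replicate 4 it was 1.44, and without control replicate 1 it was 1.55.

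Of the lysyl oxidases, which crosslink collagen and elastin, Lox was the most abundant per length and differed least. Lox was at 565, 559, 810.2 and 879.5 CPM in control and 636, 499.8, 772 and 841 CPM in EPS (log2 fold change -0.038, SE 0.23, edgeR adjusted p = 0.955). Loxl1 was at 258, 102, 322 and 348 CPM in control and 129, 75.6, 208 and 227 CPM in EPS, lower in each pair. Its log2 fold change was -0.72 (SE 0.39, adjusted p = 0.362), and -0.69 with the block (adjusted p = 0.0106). Loxl2 was also lower in 4 of 4 pairs, at 17.1 to 36.9 CPM in control and 11.7 to 30.8 CPM in EPS, without a call in either fit.

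The CCN proteins Cyr61 (Ccn1) and Ctgf (Ccn2), both matricellular and both widely used as readouts of YAP activity, differed in sign. Cyr61 was at 228, 227, 160.4 and 192 CPM in control and 678, 1403, 241 and 303 CPM in EPS. The groups did not overlap, but EPS replicates 1 and 2 stood far above 3 and 4. A log2 fold change of 1.71 was fitted (SE 0.49, edgeR adjusted p = 0.0917), and of 1.30 with the block (adjusted p = 0.0157). Without replicate 2 of both groups the blocked value was 0.93 (adjusted p = 0.00987). Ctgf was at 241, 278, 179 and 270.5 CPM in control and 183, 242, 128 and 186 CPM in EPS, lower in each pair (log2 fold change -0.38, adjusted p = 0.396, and -0.41 with the block, adjusted p = 0.0607). An exon of Ctgf overlaps Gm15270 on the opposite strand (0.730 CPM).

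Thrombospondin-1 (Thbs1), an abundant matricellular protein that can activate latent TGF-beta, was at 4938, 2471, 2298 and 2751 CPM in control and 2588, 1563, 1667 and 2180.3 CPM in EPS. It was lower in each pair, with a log2 fold change of -0.64 (SE 0.29, edgeR adjusted p = 0.263), and -0.60 with the block (adjusted p = 0.0253). Thbs2 was at 136, 88.0, 108 and 107 CPM in control and 57.7, 45.6, 78.9 and 77.5 CPM in EPS, without overlap. The fitted log2 change of Thbs2 was -0.78 (SE 0.21, adjusted p = 0.0744), and -0.76 with the block (adjusted p = 0.0140). Periostin (Postn), which binds collagen and is typical of remodelling tissue, was at 325, 380.2, 674 and 455 CPM in control and 157, 164, 397 and 373 CPM in EPS. That of Postn was -0.75 (SE 0.35, adjusted p = 0.288), and -0.82 with the block (adjusted p = 0.0109). Tenascin-C (Tnc) ranged from 272 to 1202 CPM in control and from 329 to 646 CPM in EPS and was not called in either fit.

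Biglycan (Bgn), a small proteoglycan that binds collagen, was at 826, 525, 1249 and 1177 CPM in control and 651, 334, 921 and 1065 CPM in EPS. It was lower in each pair with overlapping groups (log2 fold change -0.35, SE 0.37, edgeR adjusted p = 0.656, and -0.39 with the block, adjusted p = 0.0957). Lumican (Lum), a proteoglycan of the same family, had 4 fragments in control and 1 in EPS.

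**Figure D4:**
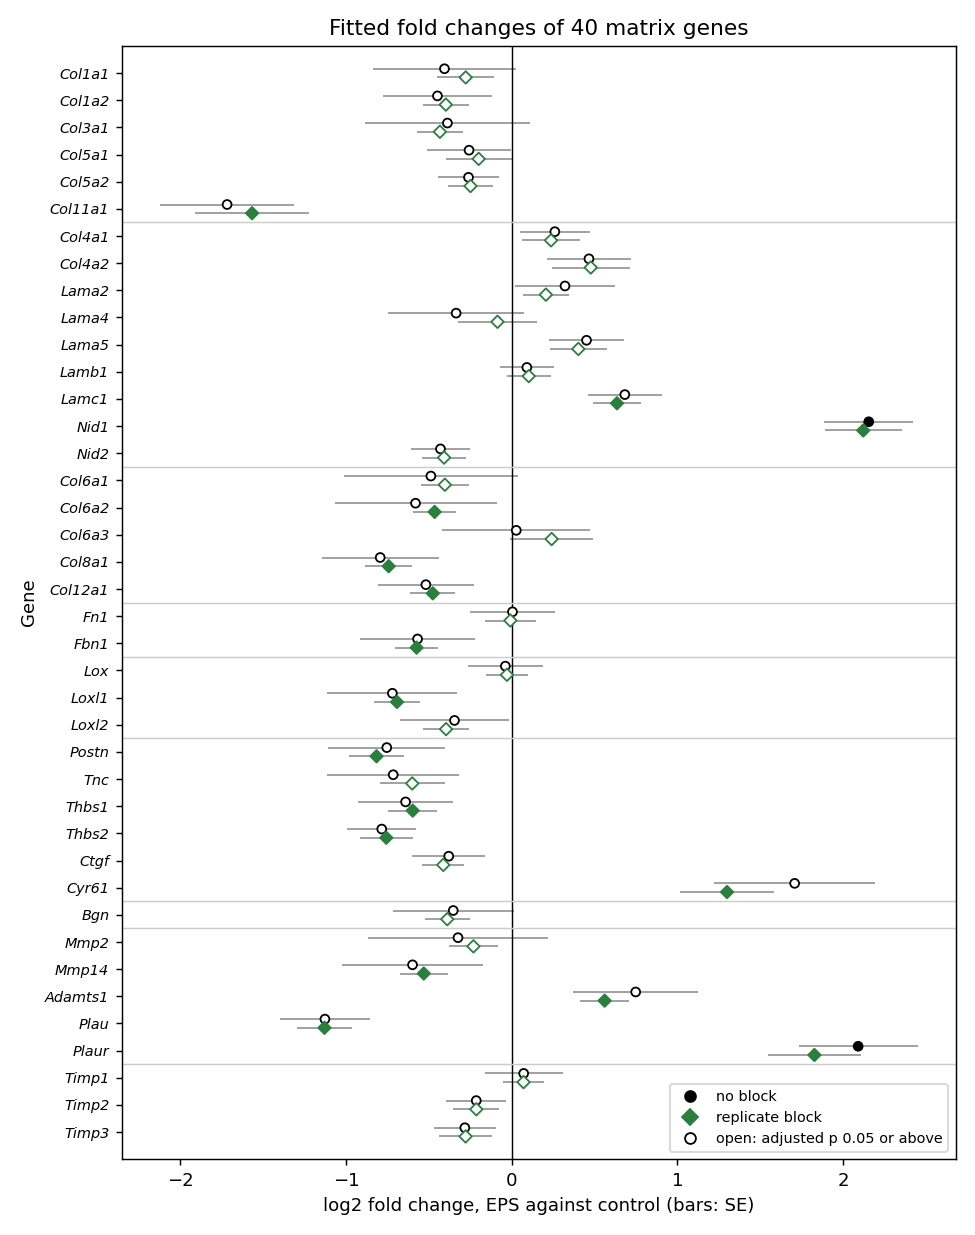
Fitted log2 fold change, EPS against control, of the 40 tested matrix genes, with SE as bars, for the fit without a block (circles) and with the replicate block (diamonds); filled marks have an adjusted p under 0.05. Filled circles mark Nid1 and Plaur, filled diamonds mark 5 higher and 11 lower members, and the block shortens most bars while moving most points little.

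Across the members, 3 lay higher in all EPS libraries than in all control libraries (Nid1, Plaur and Cyr61) and 3 lower (Col11a1, Thbs2 and Plau), against 9.32% and 4.83% of all genes tested. Each of the 6 members that were higher in 4 of 4 pairs had its 2 highest EPS values in replicates 1 and 2. The difference in the EPS effect between replicates 1 and 2 and replicates 3 and 4 was tested as an interaction, and it passed the adjusted threshold for 0 of the 40 members and 0% of all genes. At an unadjusted p under 0.05, 6 of the 40 members passed, against 10.6% of all genes, and the smallest adjusted p among members was 0.383. EPS replicates 1 and 2 also differed from the other libraries in how levels across genes followed transcript length. Level relative to the mean correlated with length at 0.295 and 0.342 in these, and between -0.386 and 0.081 in the other 6 libraries. The part of transcript length in the EPS effect was not tested beyond the fits with length and GC offsets.

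Other genes of matrix biology were read from 6 lists with 155 entries, 136 of them tested. Of these, 0 were higher and 4 lower (13 and 15 at an unadjusted p under 0.05 by edgeR, and 6 and 10 with DESeq2), and the blocked fit called 7 higher and 17 lower. The shares of all genes called higher and lower in these fits were 2.3% and 0.758%, 12.2% and 6.33% unadjusted, 4.32% and 1.89% with DESeq2, and 7.31% and 4.78% with the block. The counts for each list have these shares as their background. Among 21 tested genes of collagen folding and processing, 1 fell, Adamts14, an enzyme that trims procollagen. It was at 139, 190.1, 136 and 151 CPM in control and 93.5, 105, 80.8 and 94.7 CPM in EPS (log2 fold change -0.70, SE 0.16, edgeR adjusted p = 0.0448). The groups did not overlap, and the call was lost without any 1 library except control or EPS replicate 2, with an adjusted p of up to 0.141 (without EPS replicate 1). It was also lost with DESeq2's size factors (0.0512) and with length and GC offsets (0.104). Of 30 tested further structural genes none passed without the block, and 0 were higher and 3 lower with it. The most abundant of them, Sparc, a collagen-binding matricellular protein, had a log2 fold change of -0.28 (SE 0.23, adjusted p = 0.563).

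Among 24 tested further proteases and inhibitors, 2 fell, and with the block 3 were higher and 5 lower. Adamts5, a protease that cuts aggrecan and versican, was at 122, 128, 82.4 and 70.9 CPM in control and 43.4, 36.5, 48.0 and 39.9 CPM in EPS. All EPS libraries lay below all control libraries, with a log2 fold change of -1.23 (SE 0.21, edgeR adjusted p = 0.0132). The call was lost without control replicate 1 (0.0619) or EPS replicate 1 (0.0542). Adam19, a membrane-bound metalloprotease, was at 132, 187, 148 and 134 CPM in control and 59.4, 52.1, 83.5 and 86.2 CPM in EPS, also without overlap (log2 fold change -1.07, SE 0.21, adjusted p = 0.0229). That call was lost without control replicate 1 (0.0626), 3 (0.0889) or 4 (0.0653), or EPS replicate 1 (0.0916).

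Of 26 tested matrix receptors 0 passed, and with the block 1 was higher and 3 were lower. The beta-1 integrin chain Itgb1, the most abundant of them and shared by most collagen and laminin receptors, had a log2 fold change of 0.082 (SE 0.22, edgeR adjusted p = 0.885). In the list of TGF-beta ligands, receptors and targets, 1 of 20 tested genes fell, and with the block 2 were higher and 3 lower. It was smooth muscle actin (Acta2), a cytoskeletal gene that TGF-beta induces in myofibroblasts, at 2249, 2309, 2178 and 2398 CPM in control and 649.7, 1019.7, 1196 and 1367 CPM in EPS. The groups did not overlap, and the log2 fold change was -1.11 (SE 0.23, adjusted p = 0.0328). The call was lost without any control library or without EPS replicate 1, with adjusted p-values of 0.0527 (without control replicate 2) to 0.109 (without control replicate 3). Within replicates 3 and 4, with the pooled spread, none of Adamts14, Adamts5, Adam19 and Acta2 passed, with edgeR adjusted p-values of 0.0658 to 0.154. Of 16 tested genes in the list of YAP and SRF targets 0 passed, and with the block 1 was higher and 2 lower. That list also holds the factors Srf, Tead1 and Tead4 themselves, and Acta2 and Tagln were counted in the TGF-beta list only. The most abundant gene in it, Ankrd1, had a log2 fold change of -0.071 (SE 0.35, edgeR adjusted p = 0.943).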

How the data were processed

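The 8 C2C12 libraries (4 control, 4 EPS), each on 2 lanes and so listed as 16 samples, were made from total RNA with a stranded kit, per the labels' protocols. STAR 2.5.1, Cufflinks and Cuffdiff 2.2.1 are named with build mm10 in the submitters' processing notes. The deposited table, per the file headers, holds the authors' estimated counts per gene and library and FPKM values, scaled by Cuffdiff. Counts were rounded to whole numbers (93.3% of those above 0 were whole). The 46 genes marked as having too many fragments were left out, none of them a member. Symbols, positions and transcript lengths came from GENCODE of the same build, and 48051 identifiers had a symbol. No column of per-library values was left unused (0).

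Genes were filtered with filterByExpr (minimum count 10, minimum total 15), scaled by TMM and tested with edgeR 4.0.16 (R 4.3.3) with no covariate, adjusted by Benjamini-Hochberg over 13987 genes at 0.05. Fitted fold changes need not equal ratios of mean CPM, and their SE is approximate. On simulated counts (13779 genes), the test called 30 of 100 genes changed 2-fold and 87 of 100 changed 4-fold, with 13 unchanged genes called. FPKM served to rank members and for limma 3.58.1 as an alternative. DESeq2 1.42.0, other scalings, filters, libraries left out and a replicate block were the other alternatives. Values for replicates 1 and 2, or 3 and 4, were contrasts in 1 fit to all 8 libraries. That fit had a group for each treatment and replicate set. Their p-values thus rest on a spread pooled over both sets, with 2 libraries per group in each contrast. Ratios of 2 members used counts per GENCODE transcript length, since the table gives no effective length. Same-numbered control and EPS libraries, numbered in the sample titles, had deviations from their group means that correlated at 0.385, 0.315, 0.422 and 0.382 (9397 genes). Control replicate 4 with EPS replicate 3 (0.348) and control replicate 3 with EPS replicate 4 (0.328) also correlated, more than pair 2. The other different-numbered libraries were at 0.026 or below. The numbers were taken to pair libraries, though replicates 3 and 4 are less clearly paired by number. The labels do not state what a number marks.

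The members and lists were chosen with earlier results of these data known. Members called, or in a role group without a call the 2 most abundant tested members per length, were named with values in every library; from each further list, up to 4 called genes or the most abundant.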

Additional observations from a re-analysis of the deposited data

Results flagged for a closer look

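Among 80 groups of 4 libraries (40 members in control and in EPS), 4 held a library far from the other 3 by Dixon's ratio, and chance flags about 1 in 20 groups. Lama2 was highest in control replicate 2 at 249.7 CPM, with the others between 154 and 158 CPM. Mmp14 was lowest in the same library at 88.0 CPM, with the others between 349 and 361 CPM; that library held 0.354 M fragments. Loxl2 was lowest in control replicate 1 at 17.1 CPM, with the others between 35.1 and 36.9 CPM. Tnc was highest in EPS replicate 4 at 646 CPM, with the others between 329 and 376 CPM.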

How the results depend on the processing

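Nid1 was called higher under every alternative run, and Plaur lost its call in the cases given with its values. Counts below for replicates 1 and 2 alone, or 3 and 4 alone, are contrasts from the fit to all 8 libraries with a pooled spread. For members, the counts higher and lower (2 and 0) became 5 and 3 with DESeq2, 2 and 1 with DESeq2's size factors, 5 and 2 without a filter, 2 and 2 with length and GC offsets, 5 and 11 with the replicate block, 5 and 23 with the block and offsets, 2 and 4 without replicate 2 of both groups (added after seeing the data), 5 and 20 with the block added to that, 7 and 4 in replicates 1 and 2 alone, then 1 and 0 using just replicates 3 and 4; without 1 library they ranged from 1 to 3 and from 0 to 2. For all genes, 322 and 106 became 659 and 288 with DESeq2, 298 and 118 with DESeq2's size factors, 447 and 162 without a filter, 413 and 324 with offsets, 94 and 29 with limma on log2(FPKM + 0.1), 130 and 48 on log2(FPKM + 1), 1023 and 668 with the block, 1103 and 1124 with the block and offsets, 434 and 325 without replicate 2, 1290 and 1167 with the block added, 1191 and 575 in replicates 1 and 2 alone, 153 and 41 in 3 and 4 alone, and 92 to 427 and 22 to 167 without 1 library. For the further lists, 0 and 4 became 6 and 10 with DESeq2, 3 and 5 without a filter, 3 and 7 with offsets, 0 and 0 and 0 and 1 with the 2 pseudocounts, 7 and 17 with the block, 8 and 28 with the block and offsets, 1 and 10 without replicate 2, 10 and 31 with the block added, 10 and 6 in replicates 1 and 2 alone, 2 and 0 in 3 and 4 alone, and 0 to 3 and 0 to 5 without 1 library. The replicate block added calls for 14 members, each given with its blocked value, and changed no other call of a member.

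No reversed value passed the threshold. Of the genes that reversed, Col4a2 (1.04) and Col6a3 (0.98) were called higher within replicates 1 and 2, with the pooled spread. Col5a1 was called lower with the block and offsets (-0.42) and with the block without replicate 2 (-0.48). From replicates 1 and 2 alone, log2 fold changes were 0.019 for Col5a1, 0.015 for Lox and -0.037 for Timp1; from replicates 3 and 4 alone they were -0.084 for Col4a1, -0.058 for Col4a2, -0.00382 for Lama2, -0.046 for Lamb1, -0.35 for Col6a3 and -0.26 for Fn1. Lamb1 had -0.033 with offsets and -0.015 with the block and offsets. Col6a3 had -0.021 without a filter, -0.080 with offsets, -0.20 without replicate 2 and -0.032 with the block added. Fn1 had -0.00234 with DESeq2's size factors, -0.000891 with DESeq2, -0.046 without a filter, -0.00777 with the replicate block, -0.18 with offsets, -0.19 with both, -0.10 without replicate 2 and -0.14 with the block added. Lox had 0.011 with limma at either pseudocount and 0.00215 with the block and without replicate 2. Without 1 library, values ranged from -0.052 to 0.49 for Lama2, -0.22 to 0.53 for Col6a3, -0.21 to 0.16 for Fn1, -0.16 to 0.077 for Lox and -0.16 to 0.22 for Timp1. Log2 ratios differed by -0.032 for Col5a1/Col5a2 and -0.013 for Mmp2/Timp2 from FPKM, and without 1 library by -0.091 to 0.15 for Col5a1/Col5a2, -0.084 to 0.13 for Col6a1/Col6a2 and -0.59 to 0.68 for Mmp2/Timp2. The cause of these changes was not tested. Depth limits control replicate 2, where a count of 0 allows up to 8.68 CPM and members under that level rest on few fragments.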
